A study of Mus musculus with 9 samples.

Results

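The collagen chain genes are the genes whose symbols read Col, a type number, the letter a and a chain number, and each encodes 1 polypeptide of a collagen trimer. Values were deposited for 44 such genes, out of 17559 genes with values. Their transcripts were measured by RNA-seq in primary peritubular myoid (PTM) cells of C57BL/6J mouse testis. PTM cells are the contractile, smooth muscle-like cells that wrap the seminiferous tubule. All cells were grown in DMEM/F12 with fetal bovine serum at 37 °C. There were 3 groups of 3 libraries. Control cells received no heat. Cells of the other groups were held at 42 °C for 30 min in a water bath, returned to the incubator and collected 1 h or 6 h afterwards. The labels number the replicates without saying whether they were separate animals or cultures, so p-values here refer only to the variation among these libraries, and that variation may be technical.

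Collagens are the main structural proteins of extracellular matrix. Chains assemble as triple helices in the endoplasmic reticulum with the help of prolyl and lysyl hydroxylases and the chaperone HSP47, are secreted, and are trimmed and cross-linked outside the cell. Fibrillar collagens (types I, III, V and XI) form the fibres of the tubule wall, type IV forms the network of basement membranes, and PTM cells and Sertoli cells together lay down the basement membrane on which the seminiferous epithelium rests.

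Values are FPKM, that is, fragments scaled to transcript length and library size, a level that can be compared between genes. An estimated 19000000 to 20100000 reads lay behind each library. The heat-inducible chaperone Hspa1a stood at 6.92 to 12.3 FPKM in controls, 1228 to 1794 FPKM at 1 h and 27.1 to 49.3 FPKM at 6 h. The chaperone Hsph1 stood at 289 and 109.8 FPKM in 6 h replicates 1 and 3 but at 15.9 FPKM in 6 h replicate 2, below the controls at 18.6 to 23.1 FPKM. The 7 PTM cell markers chosen (Acta2, Tagln, Actg2, Smtn, Cnn1, Myh11 and Des) all passed the filter, and the defining Acta2 and Tagln stood at 992 to 1627 and 1602 to 2231 FPKM. The 14 Sertoli cell markers summed to 3387 FPKM in control 3 and to 309 to 607 FPKM in the other 8 libraries. In control 3 Clu, Cldn11, Gatm, Aard and Wt1 stood at 2700.02, 237, 150.3, 70.9 and 53.8 FPKM, each above its value in every other library, whereas Amh and Fshr reached at most 0.26 and 0.09 FPKM in any library. Gata4, Inhbb and Krt18 did not follow, at 79.9, 38.6 and 3.27 FPKM in control 3. Their highest values were 83.4, 92.3 and 18.8 FPKM, in 6 h replicates 1, 2 and 3. Results are therefore also given with these libraries, control 3 and 6 h replicate 2, left out.

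Of the 44 collagen genes, 22 reached at least 1 FPKM in at least 3 libraries and were tested, and the other 22 did not. All 6 type IV chains, both multiplexins and 7 of 11 fibrillar chains passed, as did 3 of 7 beaded filament and anchoring chains, 3 of 9 FACIT chains (fibril-associated collagens), 1 of 3 short network chains and 0 of 6 transmembrane and other chains. Among the genes below the filter, 8 never exceeded 0.1 FPKM. The highest value among them was 0.98 FPKM, for Col14a1 in control 3, and corresponded to about 120 reads. Col2a1, Col9a1, Col9a2 and Col6a6 had about 3 reads or fewer in every library. Col2a1, Col9a1 and Col9a2 encode cartilage collagens, as do Col9a3, Col10a1 and Col11a2, which stayed at or under 0.54, 0.44 and 0.72 FPKM. Col11a1, of the same collagen type as Col11a2, did pass the filter, with a mean of 41.6 FPKM over the 9 libraries. The others below the filter were Col6a4, Col6a5, Col7a1, Col8a2, Col13a1, Col17a1, Col19a1, Col20a1, Col23a1, Col24a1, Col25a1, Col26a1, Col27a1 and Col28a1, each between 0 and 0.76 FPKM. The members nearest the filter were Col5a3 and Col22a1 just inside it, with means of 2.42 and 2.58 FPKM over the 9 libraries, and Col14a1 just outside, at 0.10 to 0.98 FPKM.

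**Figure D1:**
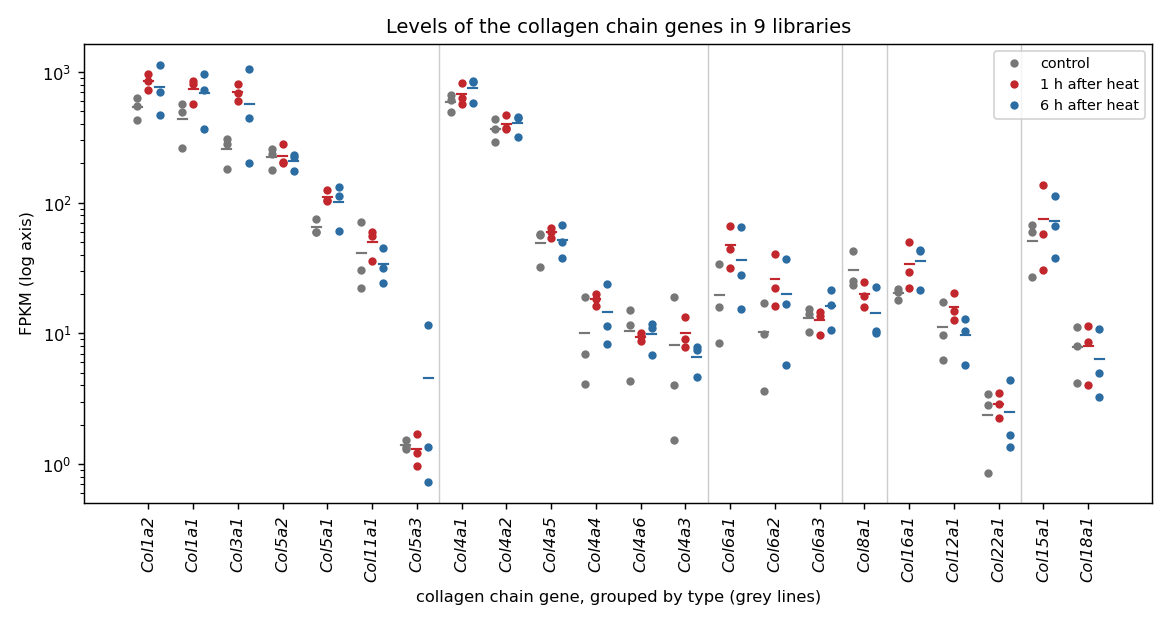
FPKM on a log axis of the 22 collagen chain genes that passed the filter, with 1 point per library, short lines at group means, and grey lines between collagen types. Col1a2, Col4a1, Col1a1 and Col3a1 have the highest means (717, 673, 622 and 506 FPKM over 9 libraries), and the points of most genes overlap between groups.

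Collagen transcript was concentrated in a few chains. Col1a2, Col4a1, Col1a1, Col3a1, Col4a2 and Col5a2 together held 86.6% to 89.4% of all collagen FPKM in each library. The summed collagen FPKM was 3012, 2090 and 3196 in control libraries 1 to 3, 4099, 3568 and 4624 at 1 h, and 3847, 5157 and 2451 at 6 h. Every 1 h sum lay above every control sum, whereas the 6 h sums spanned a range wider than both other groups. As a share of a library's FPKM, collagens made up 0.613%, 0.422% and 0.737% in controls, 0.869%, 0.765% and 0.986% at 1 h, and 0.831%, 0.96% and 0.494% at 6 h.

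At 1 h after heat, collagen transcripts were mostly at higher values than in control cells, but 0 of the 22 tested chains passed the test. The test was limma on log2(FPKM + 1) over 11460 genes, with a call at an adjusted p below 0.05. Over all genes 0.157% were called, all 18 of them higher. At an unadjusted p below 0.05, 3 chains were higher (Col3a1, Col5a1 and Col6a1) and 0 lower, against 2.76% of all genes higher and 8.05% lower. The log2 change was positive for 19 of the 22 chains, against 23.8% of all genes tested, and its median was 0.40 over the chains and -0.17 over all genes. These counts describe the chains that passed the filter. They did not come from a test of the list. Scaling the libraries by the median of ratios moved the all-gene median to -0.014 and the chains' median to 0.58, with 21 of 22 positive. Without control 2 the chains' median was 0.078, and without control 3 it was 0.65, with 18 of 22 positive and 0 called. With both control 3 and 6 h replicate 2 left out, the smallest adjusted p of a chain was 0.06 (limma), against 0.39 with all libraries.

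**Figure D2:**
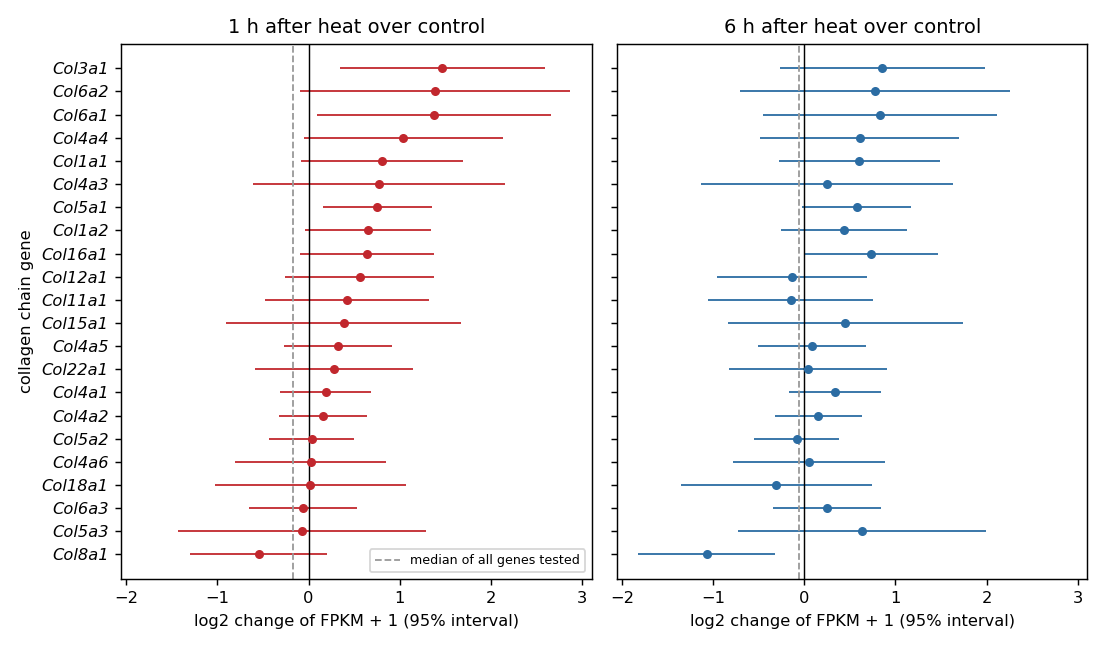
Log2 change of FPKM + 1, with 95% intervals from limma, for each collagen chain gene at 1 h (left) and 6 h (right) over control. The dashed line is the median of all 11460 genes tested, at -0.17 for 1 h and -0.060 for 6 h, and most intervals include 0.

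The largest log2 change at 1 h was that of a fibrillar chain, Col3a1. It encodes the single chain of type III collagen, found with type I in distensible tissues. It stood at 308, 179.7 and 282 FPKM in control libraries 1 to 3, at 811, 601 and 685 FPKM at 1 h, and at 442, 1049.6 and 199.7 FPKM at 6 h. All 1 h libraries lay above all controls, while the 6 h libraries included the highest value of the 9 and 1 value below 2 of the controls. The log2 change at 1 h was 1.47 (SE 0.50, 95% interval 0.34 to 2.60, limma adjusted p = 0.39), and at 6 h it was 0.85 (SE 0.50, interval -0.27 to 1.98, adjusted p = 0.88). The 6 h change depended on single libraries and was 0.25 without 6 h replicate 2 and 1.44 without 6 h replicate 3.

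The letters before the start of Col3a1 are shown because this gene had the largest difference at 1 h and was the only tested chain whose window held a TATAAA. The bases are from RefSeq on GRCm38.p6, chr1:45311288-45311537, plus strand, 250 bases ending just before the annotated start, with the TATAAA in capitals beginning 117 bases before that start.
Col3a1: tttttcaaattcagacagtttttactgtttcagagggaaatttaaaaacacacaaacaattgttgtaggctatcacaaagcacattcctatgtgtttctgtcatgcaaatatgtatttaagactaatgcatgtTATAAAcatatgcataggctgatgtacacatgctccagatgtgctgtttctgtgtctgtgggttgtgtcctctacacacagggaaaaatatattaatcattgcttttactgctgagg

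Type I collagen is a trimer of 2 chains from Col1a1 and 1 from Col1a2, and is the main collagen of connective tissue. Col1a1 stood at 563, 263 and 492 FPKM in controls, 811, 563 and 858 FPKM at 1 h, and 726, 959 and 367 FPKM at 6 h. Col1a2 stood at 552, 431 and 635 FPKM in controls, 857, 721 and 955 FPKM at 1 h, and 702, 1131 and 469 FPKM at 6 h. The 1 h libraries lay above all controls for Col1a2. For Col1a1 they overlapped narrowly, because control 1 equalled 1 h replicate 2 to within 0.2 FPKM. Between same-numbered libraries, which the labels do not call pairs, 1 h was above control by 248, 300.1 and 366 FPKM. The log2 change at 1 h was 0.81 for Col1a1 (SE 0.39, limma adjusted p = 0.49) and 0.65 for Col1a2 (SE 0.31, adjusted p = 0.49). At 6 h it was 0.60 and 0.43, with an adjusted p of 0.88 for both in limma.

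The window of Col1a2 is shown beside that of Col3a1 because Col1a2 had the highest mean level of the chains. It holds no TATAAA. It is chr6:4505368-4505617, plus strand, GRCm38.p6, with capitals marking 2 GGGCGG and, beginning 109 bases before the start, a CCAAT.
Col1a2: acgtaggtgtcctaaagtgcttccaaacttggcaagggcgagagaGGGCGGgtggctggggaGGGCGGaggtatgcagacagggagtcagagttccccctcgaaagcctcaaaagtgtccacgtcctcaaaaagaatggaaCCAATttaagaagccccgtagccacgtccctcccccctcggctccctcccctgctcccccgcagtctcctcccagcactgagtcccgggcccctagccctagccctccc

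Type V and type XI chains join type I in fibres and limit their diameter. Col5a1 stood at 75.2, 59.97 and 59.4 FPKM in controls, 124, 103.8 and 102.5 FPKM at 1 h, and 113, 131 and 60.4 FPKM at 6 h. Its 1 h libraries did not overlap the controls, and the log2 change was 0.76 at 1 h (SE 0.26, interval 0.16 to 1.35, limma adjusted p = 0.41). Col5a2, its partner chain, stood at 233, 177 and 259 FPKM in controls, 201, 204.8 and 279.7 FPKM at 1 h, and 231, 174 and 223 FPKM at 6 h. Its groups overlapped, with log2 changes of 0.036 at 1 h (interval -0.43 to 0.50) and -0.083 at 6 h (interval -0.55 to 0.38). Col5a2 also had the smallest spread of the chains, a residual SD of 0.26 log2 units.

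Col11a1 stood at 30.5, 22.1 and 70.5 FPKM in controls, 35.8, 55.1 and 59.6 FPKM at 1 h, and 24.3, 45.1 and 31.7 FPKM at 6 h. Control 3 held its highest value, and the log2 change at 6 h was -0.15 with all libraries and 0.32 without control 3. Col5a3, a minor type V chain, stood at 1.31, 1.53 and 1.36 FPKM in controls, 1.22, 0.96 and 1.71 FPKM at 1 h, and 11.6, 1.34 and 0.73 FPKM at 6 h. A single library, 6 h replicate 1, set its mean at that time. Its log2 change at 6 h against 1 h was 0.71 with that library and -0.18 without it (limma adjusted p = 0.68 with all libraries).

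Type IV chains form the network of basement membranes, and the abundant pair, Col4a1 and Col4a2, had log2 changes at 1 h below those of Col3a1, Col1a1 and Col1a2. Col4a1 stood at 613, 495 and 666 FPKM in controls, 572, 636 and 819 FPKM at 1 h, and 829.8, 845 and 578 FPKM at 6 h. Col4a2 stood at 364, 291 and 435 FPKM in controls, 367, 373 and 466 FPKM at 1 h, and 443, 451 and 317 FPKM at 6 h. The groups overlapped for both genes. The log2 change of Col4a1 was 0.19 at 1 h (interval -0.32 to 0.69) and 0.33 at 6 h (interval -0.17 to 0.84), and that of Col4a2 was 0.16 at 1 h (interval -0.32 to 0.64) and 0.15 at 6 h (interval -0.33 to 0.63). Summed type IV FPKM was 1056, 828 and 1210 in controls, 1038, 1104 and 1382 at 1 h, and 1336, 1407 and 969 at 6 h, whereas summed fibrillar FPKM was 1764, 1134 and 1800.2 in controls, 2841, 2251 and 2942 at 1 h, and 2252, 3493 and 1351 at 6 h. The fibrillar sums of 1 h and control did not overlap and the type IV sums did. That difference between the 2 types was not tested.

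The 6 type IV genes lie in 3 head-to-head pairs, and the letters between the starts show how close 2 of the pairs are. Col4a1 (chr8:11198423-11312826, minus strand) and Col4a2 (chr8:11312805-11449287, plus strand) overlap by 22 bases in the coordinates of the table. Col4a4 (chr1:82450723-82586849, minus strand) and Col4a3 (chr1:82586921-82722059, plus strand) are 71 bases apart, and Col4a6 and Col4a5 on chromosome X are 1342 bases apart. Both stretches are printed on the plus strand of GRCm38.p6 from RefSeq, chr8:11312805-11312826 and chr1:82586850-82586920, with no letters marked. The first stretch holds a GGGCGG, left here in small letters.
Shared by the Col4a1 and Col4a2 starts: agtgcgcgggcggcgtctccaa
Between the Col4a4 and Col4a3 starts: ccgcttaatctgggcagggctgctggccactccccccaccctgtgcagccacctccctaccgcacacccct

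Across libraries the Col4a1 and Col4a2 levels kept close to a fixed proportion. The ratio of Col4a1 to Col4a2 FPKM lay between 1.53 and 1.87 in all 9 libraries, a 1.22-fold range, while Col4a1 itself ranged 1.71-fold and Col4a2 1.61-fold. It was 1.68, 1.70 and 1.53 in controls, 1.56, 1.71 and 1.76 at 1 h, and 1.87, 1.87 and 1.82 at 6 h. All 6 h values lay above all others, with a mean of 1.86 ± 0.03 at 6 h against 1.64 ± 0.09 in controls (SD, n = 3 each). No test of this ratio was run, and the smallest p that an exact permutation test of 3 libraries against 3 allows is 0.1. The strand setting of the libraries is not given in the sources used here, so reads from the short overlap of the pair cannot be assigned to a gene.

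The other head-to-head pairs varied more. Col4a4 stood at 6.94, 4.11 and 19.0 FPKM in controls, 18.5, 16.2 and 20.1 FPKM at 1 h, and 11.4, 23.8 and 8.27 FPKM at 6 h. Col4a3 stood at 4.03, 1.52 and 18.9 FPKM in controls, 9.01, 7.87 and 13.3 FPKM at 1 h, and 7.48, 7.79 and 4.63 FPKM at 6 h. Both chains, which join Col4a5 in the collagen of the kidney glomerulus, were high in control 3 and low in the other controls. The log2 change of Col4a4 at 1 h was 1.04 (SE 0.49, limma adjusted p = 0.49), and the ratio of Col4a4 to Col4a3 ranged from 1.01 to 3.06. Col4a5 stood at 57.2, 32.3 and 56.5 FPKM in controls, 64.0, 60.03 and 53.6 FPKM at 1 h, and 37.4, 67.6 and 49.5 FPKM at 6 h. Its log2 change was 0.32 at 1 h and 0.086 at 6 h, with overlapping groups, and Col4a6 ranged from 4.31 to 15.2 FPKM over the 9 libraries.

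**Figure D3:**
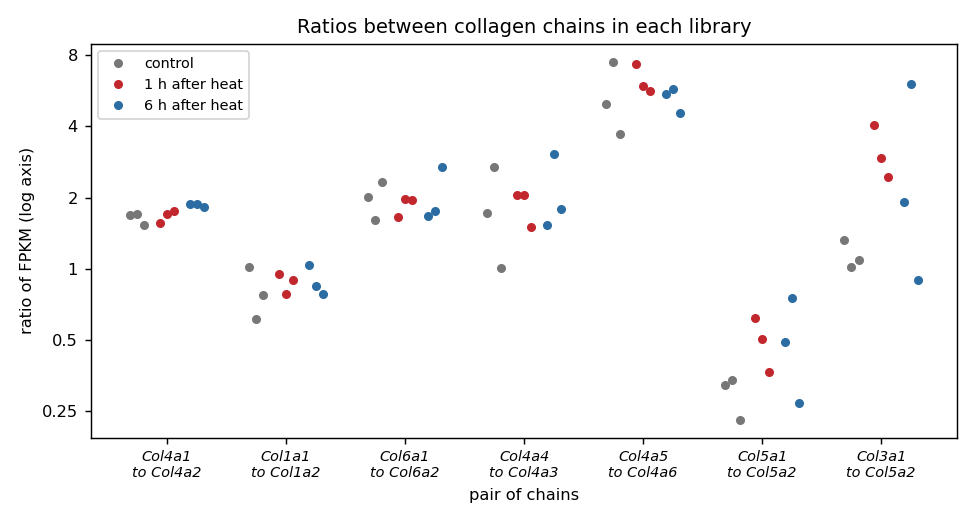
Ratio of FPKM between 2 collagen chains in each library, on a log axis, with 3 points per group. Col4a1 to Col4a2 spans 1.53 to 1.87, the narrowest range of the 7 pairs shown, and Col3a1 to Col5a2 spans 0.90 to 6.03, the widest.

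Neighbouring genes did not always keep proportion. Col3a1 (chr1:45311538-45349706, plus strand) and Col5a2 (chr1:45374331-45503282, minus strand) face each other across 24624 bases. The ratio of Col3a1 to Col5a2 was 1.32, 1.02 and 1.09 in controls, 4.04, 2.93 and 2.45 at 1 h, and 1.91, 6.03 and 0.90 at 6 h. Every 1 h ratio exceeded every control ratio, and 6 h replicates 2 and 3 held the highest and the lowest ratio of all. The ratio of Col1a1 to Col1a2, partners on different chromosomes, lay between 0.61 and 1.03.

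Type VI collagen forms beaded filaments around cells from 1 chain each of Col6a1, Col6a2 and Col6a3. Col6a1 stood at 34.1, 15.9 and 8.45 FPKM in controls, 66.2, 43.9 and 31.6 FPKM at 1 h, and 28.0, 65.5 and 15.3 FPKM at 6 h. Col6a2 stood at 17.0, 9.88 and 3.65 FPKM in controls, 40.1, 22.2 and 16.1 FPKM at 1 h, and 16.8, 37.3 and 5.70 FPKM at 6 h. Both were lowest in control 3 and highest in 1 h replicate 1, and 1 control overlapped the 1 h group for each. Between same-numbered libraries, which the labels do not call pairs, 1 h was above control by 32.2, 28.0 and 23.2 FPKM for Col6a1. For Col6a2 it was above by 23.1, 12.3 and 12.5 FPKM. Their log2 changes at 1 h were 1.38 for Col6a1 (SE 0.57, limma adjusted p = 0.44) and 1.39 for Col6a2 (SE 0.66, adjusted p = 0.49). At 6 h they were 0.83 and 0.77 with all libraries (SE 0.57 and 0.66, limma adjusted p = 0.88 for both), and turned to -0.16 and -0.36 with control 3 and 6 h replicate 2 left out. Col6a2 had the largest residual SD of the chains, 0.996 log2 units.

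Col6a3 did not follow its partners. It stood at 10.3, 15.3 and 14.0 FPKM in controls, 9.68, 14.5 and 13.7 FPKM at 1 h, and 21.5, 16.5 and 10.7 FPKM at 6 h. Its log2 change at 1 h was -0.059 (interval -0.65 to 0.53) and turned to 0.10 under median-of-ratios scaling. The ratio of Col6a1 to Col6a2 stayed between 1.61 and 2.69, a 1.67-fold range, while Col6a1 itself ranged 7.84-fold and Col6a2 10.99-fold. The ratio of Col6a3 to Col6a1 ranged from 0.15 in 1 h replicate 1 to 1.65 in control 3. Col6a1 and Col6a2 lie 85387 bases apart on chromosome 10, in the same orientation, and Col6a3 lies on chromosome 1.

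Col8a1, a short network chain of vessel walls and other basement membranes, had lower group means after heat, with groups that overlapped at 1 h. It stood at 23.6, 24.97 and 42.3 FPKM in controls, 15.8, 24.9 and 19.4 FPKM at 1 h, and 10.3, 10.1 and 22.8 FPKM at 6 h. The 6 h libraries all lay under the controls, though 6 h replicate 3 was within 1 FPKM of control 1. The log2 change at 6 h was -1.07 (SE 0.33, interval -1.82 to -0.32, limma unadjusted p = 0.01, adjusted p = 0.88). At 1 h it was -0.55 (SE 0.33, interval -1.30 to 0.20, limma adjusted p = 0.53). With control 3 and 6 h replicate 2 left out the 6 h change was -0.62.

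The window before the start of Col8a1 is shown because this chain had the lowest log2 change at both times. It lies on the minus strand at chr16:57754738-57754987 (GRCm38.p6) and holds GGGCGG 4 times, each on the opposite strand and so written CCGCCC, in capitals.
Col8a1: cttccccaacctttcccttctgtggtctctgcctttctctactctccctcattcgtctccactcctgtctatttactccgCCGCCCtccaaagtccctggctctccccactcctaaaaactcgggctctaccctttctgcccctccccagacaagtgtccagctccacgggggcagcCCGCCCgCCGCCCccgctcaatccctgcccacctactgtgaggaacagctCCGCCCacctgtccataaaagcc

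RefSeq windows of 250 bases before to 50 after a start were given for 17 of the 22 tested chains, in 19 windows. Both strands were searched for 4 motifs. TATAAA was in 1 of the 19 windows and in 13.6% of all 32851 windows, and CCAAT was in 8 of 19 and in 37.4% of all. GGGCGG was in 13 of 19 and in 35.7% of all. GAANNTTC, 2 facing units of the heat shock element in which NN stands for any bases, was in 1 of 19, that of Col4a5, and in 7.86% of all. A match is a description of letters only.

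The fibril-associated chains and multiplexins sit on the surface of fibres or between them and basement membranes. Col16a1 stood at 22.0, 18.0 and 20.7 FPKM in controls, 22.2, 29.2 and 50.2 FPKM at 1 h, and 42.3, 43.6 and 21.5 FPKM at 6 h. Its log2 change was 0.64 at 1 h, where the groups were 0.25 FPKM apart, and 0.73 at 6 h, where they overlapped (SE 0.33 for both, limma adjusted p = 0.50 and 0.88). Col12a1 stood at 9.75, 6.29 and 17.3 FPKM in controls, 20.3, 12.6 and 14.9 FPKM at 1 h, and 12.9, 5.76 and 10.5 FPKM at 6 h. It had the lowest log2 change of 6 h against 1 h, -0.70 (SE 0.37, limma adjusted p = 0.50).

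Col15a1 stood at 59.1, 26.8 and 67.4 FPKM in controls, 30.7, 57.0 and 137 FPKM at 1 h, and 111, 66.5 and 37.4 FPKM at 6 h. Its values spread nearly as widely within the 1 h group as over all libraries. Col18a1, whose C-terminal fragment is endostatin, stood at 11.3, 8.03 and 4.14 FPKM in controls, 8.58, 4.0 and 11.4 FPKM at 1 h, and 10.8, 5.01 and 3.23 FPKM at 6 h. The log2 change of Col18a1 at 6 h was -0.31 and turned to 0.026 without 6 h replicate 3. Col22a1 ranged from 0.86 to 4.41 FPKM.

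**Figure D4:**
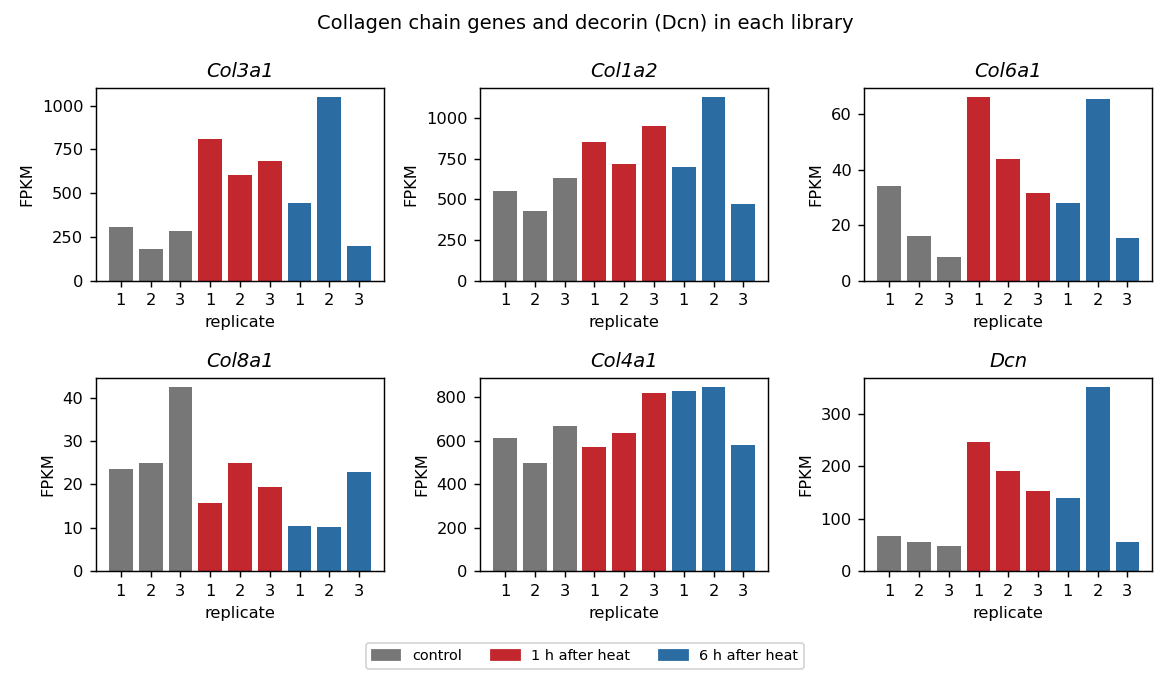
FPKM in each library (bars, 3 replicates per group) of 5 collagen chain genes and of Dcn, decorin. Col3a1, Col1a2 and Dcn are highest in 6 h replicate 2, at 1049.6, 1131 and 350 FPKM, and Col8a1 is lowest there, at 10.1 FPKM.

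At 6 h after heat, 0 of the 22 chains and 0% of all genes were called against control (limma). At an unadjusted p below 0.05 there were 0 chains higher and 1 lower, Col8a1, against 1.27% of all genes higher and 3.35% lower. The log2 change was positive for 17 of 22 chains, against 39.9% of all genes, and its median was 0.29, against -0.060 over all genes. The chains' median was 0.11 without control 2, 0.17 without 6 h replicate 2 and 0.51 without 6 h replicate 3. With both control 3 and 6 h replicate 2 left out it was 0.25, with 17 of 22 positive.

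Between 6 h and 1 h, 0 of 22 chains were called (limma), against 0.279% of all genes, all of them lower at 6 h. At an unadjusted p below 0.05 the counts of chains were 0 higher and 0 lower, against 8.45% and 3.19% of all genes. The log2 change was positive for 6 of 22 chains, against 62.9% of all genes, with a median of -0.23 over the chains and 0.095 over all genes. Without 6 h replicate 3 the chains' median was -0.0047, and it was -0.40 without 6 h replicate 2, -0.35 without 1 h replicate 2 and -0.13 without 1 h replicate 3. Both heat groups were set against the same 3 controls, and both comparisons with the 1 h group share its libraries.

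Overlap between groups was counted for the chains and for all genes. At 1 h the 3 heated libraries lay above all controls for 4 of the 22 chains, Col3a1, Col1a2, Col5a1 and Col16a1, against 4.49% of all genes, and below all controls for 0, against 21.4%. Same-numbered libraries were also compared, though the labels do not call them pairs. There 1 h was above control all 3 times for 10 of 22 chains, against 8.18% of all genes. The 1 h value was below all 3 times for 2, Col8a1 and Col6a3, against 38.2%. Some of these margins were small. For Col22a1, counted as higher, the differences were 0.07, 1.4 and 0.05 FPKM, and for Col16a1 the first was 0.25 FPKM. For Col8a1 the second was -0.1 FPKM, and for Col6a3 the 3 were -0.58, -0.75 and -0.32 FPKM. With the replicate number as a block, 0 chains were called and the smallest adjusted p of a chain was 0.40 (limma). The 6 h libraries lay above the controls for 0 chains, against 1.89% of all genes, and below for 1, Col8a1, against 5.32%. They lay above the 1 h libraries for 0 chains, against 15.2% of all genes, and below for 1, Col4a3, against 4.97%.

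The chains varied more between replicates than most genes. The median residual SD within groups was 0.54 log2 units over the chains and 0.26 over all genes tested, and 20 of the 22 chains lay above the median of all genes. Control 2 held the lowest value of 13 of the 22 chains, and 6 h replicate 2 held the highest value of 8 and the lowest of 3. Control 3 held the highest value of 4 chains, Col11a1, Col8a1, Col4a6 and Col4a3, and the lowest of 3, Col5a1, Col6a1 and Col6a2. Col5a3, Col4a3 and Col6a2 had the widest ranges over the 9 libraries, 15.9-fold, 12.4-fold and 10.99-fold, and Col5a2 and Col4a2 the narrowest, 1.61-fold each.

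In the authors' deposited table, fold changes between group means and q-values from DEGseq gave more differences among the same genes. Past a q of at most 0.001 and a fold of at least 2 stood 6 of 42 collagen genes with a value at 1 h against control, 4 of 43 at 6 h against control and 3 of 42 at 6 h against 1 h. Over all genes in that table, 3.51% were higher and 4.33% lower at 1 h, 3.01% and 3.44% at 6 h, and 2.48% and 2.02% between the times. In the authors' deposited table the tested chains past that rule were Col3a1 (log2 fold 1.45), Col6a1 (1.28) and Col6a2 (1.36) at 1 h. At 6 h against control they were Col3a1 (1.15), Col5a3 (1.69) and Col8a1 (-1.07), and between the times Col5a3 (1.80), which rests on 1 library. The others past the rule in the authors' deposited table were Col24a1, Col28a1, Col13a1 and Col7a1, all below 1 FPKM in every library here.

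Genes of collagen synthesis were examined beside the chains. Serpinh1 encodes HSP47, the collagen-specific chaperone of the endoplasmic reticulum, which is also a heat shock protein. It stood at 664, 546 and 425 FPKM in controls, 1149, 1074 and 1026 FPKM at 1 h, and 674, 979 and 655 FPKM at 6 h. The 1 h libraries did not overlap the controls, and the log2 change was 1.01 at 1 h (SE 0.23, limma adjusted p = 0.18) and 0.49 at 6 h (SE 0.23, adjusted p = 0.88). Of 25 tested genes for modification and folding in the endoplasmic reticulum, 0 were called in either direction in any comparison (limma). Their median log2 change was 0.22 at 1 h, with 21 of 25 positive, and 0.15 at 6 h, with 17 of 25 positive. P4hb, a subunit of prolyl 4-hydroxylase and the most abundant of these after Serpinh1, averaged 656 ± 49.8 FPKM at 1 h and 505 ± 93.2 FPKM in controls (SD, n = 3 each). The genes of this list with a negative log2 change at 1 h were P3h2 (-0.98), Ctage5 (-0.39), Tmem38b (-0.11) and Creb3l1 (-0.065).

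Of 16 tested genes for procollagen processing and cross-linking, 0 were called in any comparison (limma), and the median log2 change was 0.43 at 1 h and 0.26 at 6 h, with 13 of 16 positive each time. Lox, lysyl oxidase, which starts cross-linking, stood at 487, 368 and 472 FPKM in controls, 552, 649.7 and 964 FPKM at 1 h, and 705, 513 and 507 FPKM at 6 h. Its 1 h libraries lay above all controls, with a log2 change of 0.68 (SE 0.24, limma adjusted p = 0.42). Adamts2, which trims the N-terminal propeptide of fibrillar procollagens, averaged 77.9 ± 16.1 FPKM at 1 h and 35.8 ± 7.64 FPKM in controls (SD, n = 3 each), a log2 change of 1.10 (SE 0.42, limma adjusted p = 0.43). Sparc, which binds collagen, was the most abundant of the list, at 2400.5 to 4478 FPKM over the 9 libraries. Loxl3, Tll1 and Adamts14 had negative log2 changes at 1 h, of -0.49, -0.46 and -0.39.

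Of 6 tested collagen receptors and uptake genes, and of 5 tested collagen-cleaving proteases, 0 were called in any comparison (limma). The receptors' median log2 change was 0.15 at 1 h and -0.17 at 6 h, with 3 and 2 positive. The proteases' median was 0.37 at 1 h and 0.072 at 6 h, with 3 positive each time. Itga1, the alpha subunit of the collagen receptor integrin alpha1beta1, averaged 15.4 ± 0.51 FPKM at 1 h and 7.30 ± 3.39 FPKM in controls (SD, n = 3 each), a log2 change of 1.06 (SE 0.40, limma adjusted p = 0.43). Mmp14, a membrane-bound collagenase, averaged 160.1 ± 18.9 FPKM at 1 h and 183 ± 41.6 FPKM in controls (SD, n = 3 each).

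Markers of fibroblasts and testicular stroma were also examined in each library. The 6 markers (Dcn, Tcf21, Pdgfra, Lum, Dpt and Pi16, none at 0 in every library) summed to 198, 171 and 103.2 FPKM in controls, 436, 376 and 309.9 FPKM at 1 h, and 292, 623 and 133 FPKM at 6 h. The 1 h sums lay above all control sums, and the 6 h sums held both the highest of all and 1 inside the control range. Dcn and Tcf21 made up most of these sums. Dcn stood at 66.4, 56.1 and 46.7 FPKM in controls, 246, 189.7 and 153 FPKM at 1 h, and 139, 350.1 and 55.4 FPKM at 6 h, a log2 change of 1.77 at 1 h (limma adjusted p = 0.35). Pdgfra did not follow Dcn, at 33.9, 46.0 and 19.1 FPKM in controls, 62.0, 40.02 and 29.8 FPKM at 1 h, and 19.1, 42.6 and 17.4 FPKM at 6 h. Its groups overlapped at both times, with log2 changes of 0.43 at 1 h and -0.34 at 6 h (limma adjusted p = 0.66 and 0.90). Of the 5 markers tested, 5 had a positive log2 change at 1 h and 4 at 6 h, and 0 were called at either time. Dcn and Lum are also on the list of processing and cross-linking genes.

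The part of these markers in the collagen values was not tested. In bulk libraries fewer cells of a type and less RNA per cell cannot be told apart. The 7 PTM cell markers summed to 3259 to 3994 FPKM in controls, 3129 to 3304 FPKM at 1 h and 2718 to 4012 FPKM at 6 h. Acta2 and Tagln made up most of these sums, which therefore say little about the other markers. Over the 9 libraries Cnn1 stood at 18.38 to 119.39 FPKM, Des at 11.02 to 63.7 FPKM and Myh11 at 8.41 to 48.84 FPKM. Actg2 stood at 41.4 to 216.47 FPKM and Smtn at 24.06 to 37.34 FPKM. Of the 7 markers, 0 had a positive log2 change at either time or were called. Their median log2 change was -0.54 at 1 h and -0.37 at 6 h, against -0.17 and -0.060 over all genes. Over all genes tested, 23.8% had a positive log2 change at 1 h and 39.9% at 6 h. Macrophage markers summed to 54.5 to 92.4 FPKM in controls, 58.4 to 276 FPKM at 1 h and 45.0 to 281 FPKM at 6 h, and 7 of the 7 tested had a positive log2 change at 1 h with 0 called. Endothelial markers summed to 39.1 to 83.6 FPKM in controls, 28.3 to 53.3 FPKM at 1 h and 30.1 to 58.3 FPKM at 6 h. Leydig cell markers summed to 910 to 2138 FPKM in controls, 872 to 2030 FPKM at 1 h and 1400 to 2031 FPKM at 6 h, and 4 of the 7 passed the filter. Over the 9 libraries Insl3 stood at 181 to 1607 FPKM, Cyp11a1 at 288 to 819.8 FPKM, Star at 42.2 to 211 FPKM and Hsd3b1 at 33.2 to 188 FPKM, and Cyp17a1, Hsd17b3 and Lhcgr each reached at most 0.27 FPKM. Red blood cell and germ cell markers reached sums of at most 7.08 and 7.86 FPKM.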

How the data were processed

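RNA was measured in 9 libraries of primary mouse PTM cells, 3 per group. The deposited table gives FPKM per gene and library to 2 decimals, per the file headers. The genome was mm10 and the tools were RSEM 1.2.12, Bowtie2 2.2.5 and HISAT2 2.0.4, per the submitters' processing notes, which assign them no step. Of 20717 genes listed, 3158 had no values. The table also holds the authors' log2 fold changes and the authors' q-values and p-values, made with DEGseq per the file headers. FPKM are shares of a library, so a higher share of some transcripts lowers the others.

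Collagen genes were taken by symbol. A gene was tested if 3 or more libraries had 1 FPKM or more, which left 11460 genes. Values were taken as log2(FPKM + 1) and fitted in limma 3.58.1 (R 4.3.3) with its variance trend, all 9 libraries in 1 fit with 3 group means and no replicate block, two-sided, with Benjamini-Hochberg adjustment over all genes tested. Low genes therefore show smaller log2 changes than their FPKM ratios. The test was checked on simulated data with each gene's own mean and spread. Of added log2 changes of 1, 43.3% were called for 1 h against control and 55.2% in each of the other comparisons. The changed genes were drawn from all genes tested, with noise drawn separately for each gene. Median residual SD was 0.26 log2 units over all genes and 0.54 over the chains, so these rates do not describe the chains. False calls numbered 1 at 1 h, 15 at 6 h and 8 between the times. Reads per library were estimated from the FPKM steps of low genes, of which 87.7% to 92.3% fell no further than 0.2 from a whole read (40% if spread evenly). Because the rest did not, counts were not rebuilt and no count test was run. Promoter letters are from RefSeq on GRCm38.p6, the assembly of mm10.

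The members and gene lists were chosen with earlier results of these data known. All members are accounted for, and values per library are given for the 12 with the highest mean and the 4 tested chains with the largest log2 change in each direction in each comparison. Col4a3 and the genes of the synthesis and marker lists that are named beyond the highest of each list were chosen after their values were seen. Deviations from the group means of same-numbered libraries correlated at 0.19, 0.15 and 0.26 between 1 h and control. The labels give no pairing, and correlations between differently numbered libraries were not computed, so a pairing of these groups is not established. Differences between same-numbered libraries are given as description only. The same deviations correlated at -0.18 to 0.04 between 6 h and control and at -0.35 to -0.10 between 6 h and 1 h. Alternatives were pseudocounts, filters, scalings, quantile normalization, the block, library weights and leaving out libraries.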

Additional observations from a re-analysis of the deposited data

How the results depend on the processing

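Under 21 alternatives the number of collagen chains called stayed at 0 in 61 of 63 counts. With library quality weights 2 were called at 1 h (Col4a4, log2 change 1.22, and Col3a1, 1.21), but the weighting stopped before it converged and 1340 genes were called over all. With weights from a gene-by-gene method, added after seeing the data, 1 was called for 6 h against 1 h (Col3a1, -1.44), with 1657 genes called over all, and 0 at 1 h. The replicate block left every count of chains at 0, with 15 genes called over all at 1 h, 0 at 6 h and 23 between the times, and changed no call of a chain.

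Genes called over all numbered 18 at 1 h as reported and 8 to 52 when 1 library was left out, 52 being without 6 h replicate 2. They numbered 10 with no filter, 31 with quantile normalization, 47 with only the 2 groups compared and 194 with gene-by-gene weights. At 6 h there were 0 as reported, 0 to 25 when 1 library was left out (25 without 6 h replicate 1) and 1 with gene-by-gene weights. For 6 h against 1 h there were 32 as reported, 8 to 104 when 1 library was left out, 55 with quantile normalization and 263 with library quality weights.

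Of 481 log2 changes of single chains under alternatives, 39 changed sign. At 1 h, Col5a3 became 0.027 with median-of-ratios scaling and 0.0057 with quantile normalization, and lay between -0.20 and 0.032 when 1 library was left out. Col6a3 became 0.10 with scaling, 0.097 with quantile normalization and 0.23 and 0.13 with library and gene-by-gene weights, and lay between -0.22 and 0.11 when 1 library was left out. At 6 h, Col11a1 became 0.025 and 0.031 and Col12a1 0.090 and 0.14 with library and gene-by-gene weights. Leaving out 1 library gave -0.50 to 0.32 for Col11a1, -0.45 to 0.21 for Col12a1 and -0.72 to 0.026 for Col18a1. Library and gene-by-gene weights gave -0.61 and -0.71 for Col6a2 and -0.42 and -0.41 for Col6a1, which lay between 0.17 and 1.43 and between 0.29 and 1.32 when 1 library was left out. With both control 3 and 6 h replicate 2 left out, Col11a1 was 0.090, Col12a1 0.51, Col6a2 -0.36 and Col6a1 -0.16. Col3a1 became -0.12 with gene-by-gene weights. For 6 h against 1 h, Col16a1 became -0.029 with scaling, -0.17 and -0.31 with library and gene-by-gene weights, and -0.16 to 0.41 when 1 library was left out, or -0.079 with both left out. Col6a3 became -0.0026 and -0.096 with library and gene-by-gene weights and Col4a1 -0.078 with gene-by-gene weights. Leaving out 1 library gave -0.18 to 1.26 for Col5a3 and -1.22 to 0.041 for Col6a2. The cause of these changes was not tested.

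With no filter, over all 44 genes, the chains' median log2 change at 1 h was 0.037. The 22 chains below the filter had about 1 to 120 reads in their highest library, and with no filter 0 of them were called. With 3 libraries per group and the spread of these chains, the 95% intervals of most log2 changes are wider than 1.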
